A study of Mus musculus with 6 samples.

Results

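The 10 genes described here encode enzymes of eicosanoid synthesis and 1 accessory protein, and they were picked by symbol from the 24062 gene symbols in the deposited table of raw counts. All 10 were found (Alox5, Alox5ap, Alox15, Lta4h, Ltc4s, Ptgs1, Ptgs2, Ptges, Hpgds and Tbxas1), and all 10 were among the 15222 genes that passed the filter on low counts. The source was aortic arch plaque of C57BL/6 mice that all carried the same gene knockout, as bulk RNA in 3 libraries labelled vehicle and 3 labelled ABT263. All of these mice, controls included, had been fed for 12 weeks on TD88137, which is high in fat, and had then spent 3 weeks on low-fat food. ABT263 (navitoclax), an inhibitor of BCL-xL, BCL-2 and related survival proteins, reached the mice by daily intraperitoneal injection of 100 mg/kg during week 1 on the low-fat food. The drug was systemic and not aimed at 1 cell type, and the sex and age of the mice and the number of animals behind a library are not stated in the labels. According to its title, the series asks whether senescent cells hold back repair by smooth muscle cells of the vessel wall.

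Eicosanoids are short-lived lipid signals made from arachidonic acid that phospholipases free from membranes. Lipoxygenases lead to leukotrienes and hydroxy acids, and cyclooxygenases lead, through prostaglandin H2, to the prostaglandins, prostacyclin and thromboxane. In the artery wall, macrophages and other leukocytes make leukotrienes, platelets make thromboxane, and endothelium and smooth muscle make prostacyclin. Because the drug also lowers platelet numbers through BCL-xL, platelet markers are given below beside the enzymes that platelets use.

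Total counts ran from 62930547 to 110452098 per library, so that a gene with 0 counts could lie as high as 3 counts, or 0.0272 to 0.0477 CPM, for counting error only. CPM are counts scaled to a common library size, here after TMM, a method that evens out differences in RNA composition. Markers of macrophages, smooth muscle and endothelium were detected in all 6 libraries. ABT263 replicate 2 stood apart, with 9 adipocyte markers summing to 4729 CPM against 84.6 to 296 in the 5 other libraries. Vehicle replicate 2 stood apart too, with 7 endothelial markers summing to 456 CPM against at least 1716 in the ABT263 libraries. In ABT263 replicate 3, 7 skeletal muscle markers summed to 50.9 CPM, against 5.51 to 7.41 CPM in the 5 other libraries. The labels do not say that each library is a separate animal, so p-values measure the spread between these libraries, which may in part be technical.

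None of the 10 genes passed the edgeR quasi-likelihood test at a Benjamini-Hochberg adjusted p of 0.05, and the test called 0 of all 15222 genes (0%), with 1276 at an unadjusted p under 0.05. DESeq2 called none of the 10 and 153 of all genes (1.01%), and limma-voom called none of the 10 and 0% of all genes. At an unadjusted p under 0.05 edgeR listed 3 of the 10, against 8.38% of all genes, namely Hpgds and Tbxas1 on the lower side (3.68% of all genes) and Alox5 on the higher side (4.70%). The groups did not overlap for 2 of the 10, against 12.0% of all genes. These were Hpgds, lower with ABT263 (6.31% of all genes), and Ptges, higher with ABT263 (5.68%). The log2 fold change (ABT263 over vehicle) was positive for 6 genes and negative for 4, where 50.1% and 49.9% of all genes were positive and negative. Its median over the 10 was 0.59, beside 0.0008 over all genes, and it ran from -0.96 to 1.85.

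**Figure D1:**
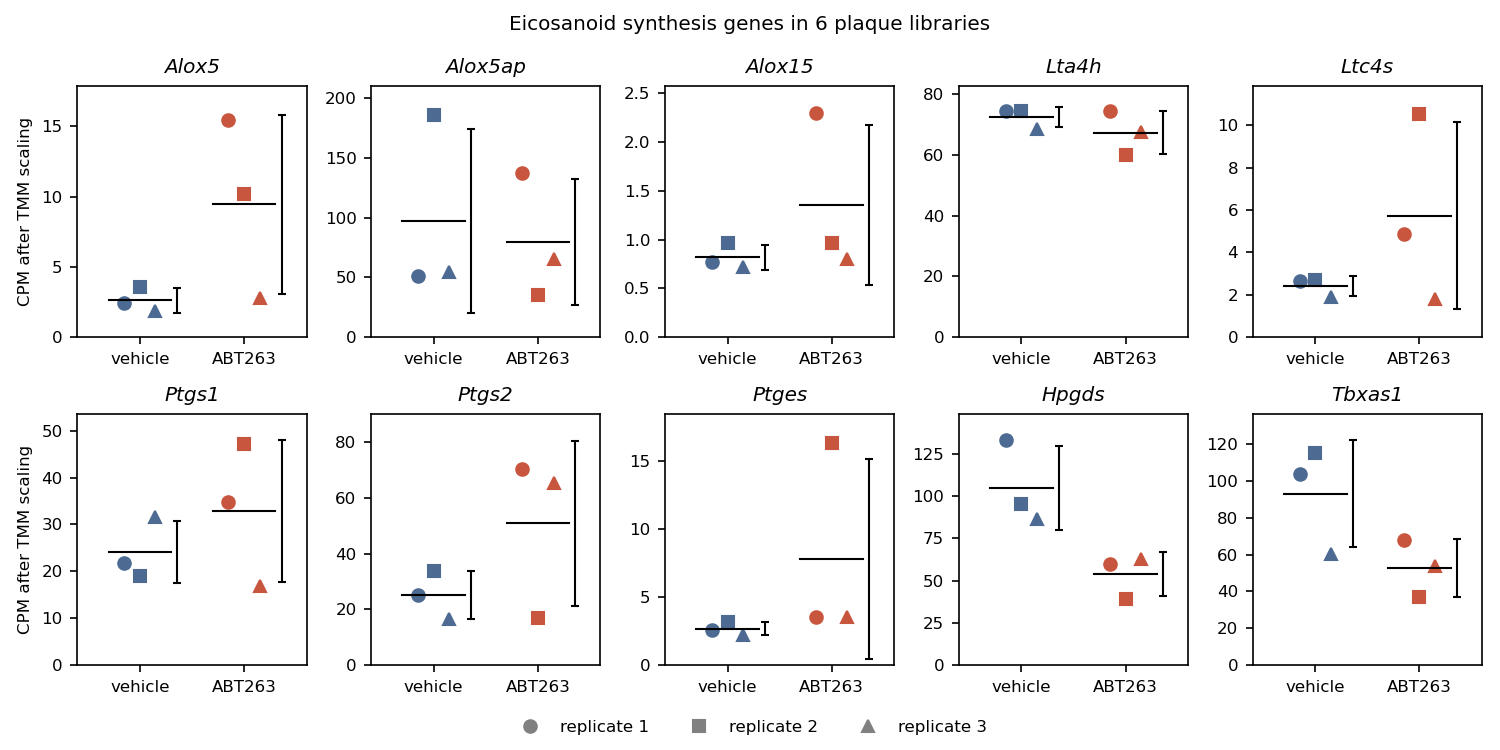
Level of each of the 10 genes in CPM after TMM scaling, with 1 point per library (blue vehicle, red ABT263; the shape gives the replicate). The horizontal line is the mean of 3 libraries and the bar beside it is ± 1 SD; Hpgds is lower in all 3 ABT263 libraries, and Ptges at 16.3 CPM in ABT263 replicate 2 is far above its other values.

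Hpgds and Tbxas1 were the members with the lowest ABT263 levels relative to vehicle. Hpgds encodes haematopoietic prostaglandin D synthase, which turns prostaglandin H2 into prostaglandin D2 in macrophages, mast cells and other blood cells. It stood at 133, 95.5 and 86.3 CPM in vehicle replicates 1 to 3 and at 60.0, 39.1 and 63.0 CPM in ABT263 replicates 1 to 3. Every ABT263 library was thus below every vehicle library. The means were 105 ± 24.8 and 54.0 ± 13.1 CPM (SD, n = 3 each), a log2 fold change of -0.96 (SE 0.27), with an edgeR adjusted p of 0.592. By DESeq2 its adjusted p was 0.0975. Hpgds lies on chromosome 6, 65117293 to 65144908 on the minus strand (GRCm38).

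Tbxas1 encodes thromboxane A synthase, the cytochrome P450 of platelets and macrophages that forms thromboxane A2. Its levels were 104, 115 and 60.3 CPM with vehicle and 68.2, 36.8 and 53.6 CPM with ABT263. The groups overlapped, because vehicle replicate 3 lay below ABT263 replicate 1. The fitted log2 fold change was -0.82 (SE 0.33, edgeR adjusted p = 0.592), from means of 93.2 ± 29.1 and 52.9 ± 15.7 CPM. Over the 6 fits that left out 1 library it stayed negative, from -1.06 to -0.61, as did that of Hpgds, from -1.08 to -0.75. Tbxas1 lies on the same chromosome, 38875404 to 39084585 on the plus strand, and 1.58% of its exon bases overlap an antisense gene.

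Macrophage markers were low in the same libraries as these 2 enzymes. Of 15 macrophage markers, all present in the table and none at 0, 14 had a negative log2 fold change (49.9% of all genes). None passed by edgeR, and 1, Csf1r, passed by DESeq2. At an unadjusted p under 0.05 edgeR listed 6 of the 15 on the lower side (3.68% of all genes) and 1, Cd163, on the higher side (4.70%). Their summed level was 8071 to 15680 CPM with vehicle and 3852 to 7649 CPM with ABT263, lowest in ABT263 replicate 2, where Hpgds and Tbxas1 were also lowest. Such signs were not particular to macrophages. Among markers that passed the filter, all 8 of T cells, 6 of B cells, 10 of neutrophils and 5 of eosinophils were negative. So were 6 of 8 dendritic cell markers, while 4 of 6 mast cell and 8 of 8 peritoneal macrophage markers were positive. None of these passed by edgeR, and DESeq2 called 3 of B cells and 1 of neutrophils (1.01% of all genes). In bulk RNA, fewer cells of a type and less RNA per cell cannot be told apart. Platelet markers were compared for Tbxas1, since platelets use the enzyme. All 9 had a negative log2 fold change (49.9% of all genes). By edgeR 0 of the 9 had an unadjusted p under 0.05, and the groups overlapped for all 9. Their sum was 76.6, 51.9 and 184 CPM in vehicle replicates 1 to 3 and 62.7, 74.1 and 28.6 CPM in ABT263 replicates 1 to 3. Their highest sum was in vehicle replicate 3, the vehicle library in which Tbxas1 was lowest, and the part of platelets in its level was not tested.

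**Figure D2:**
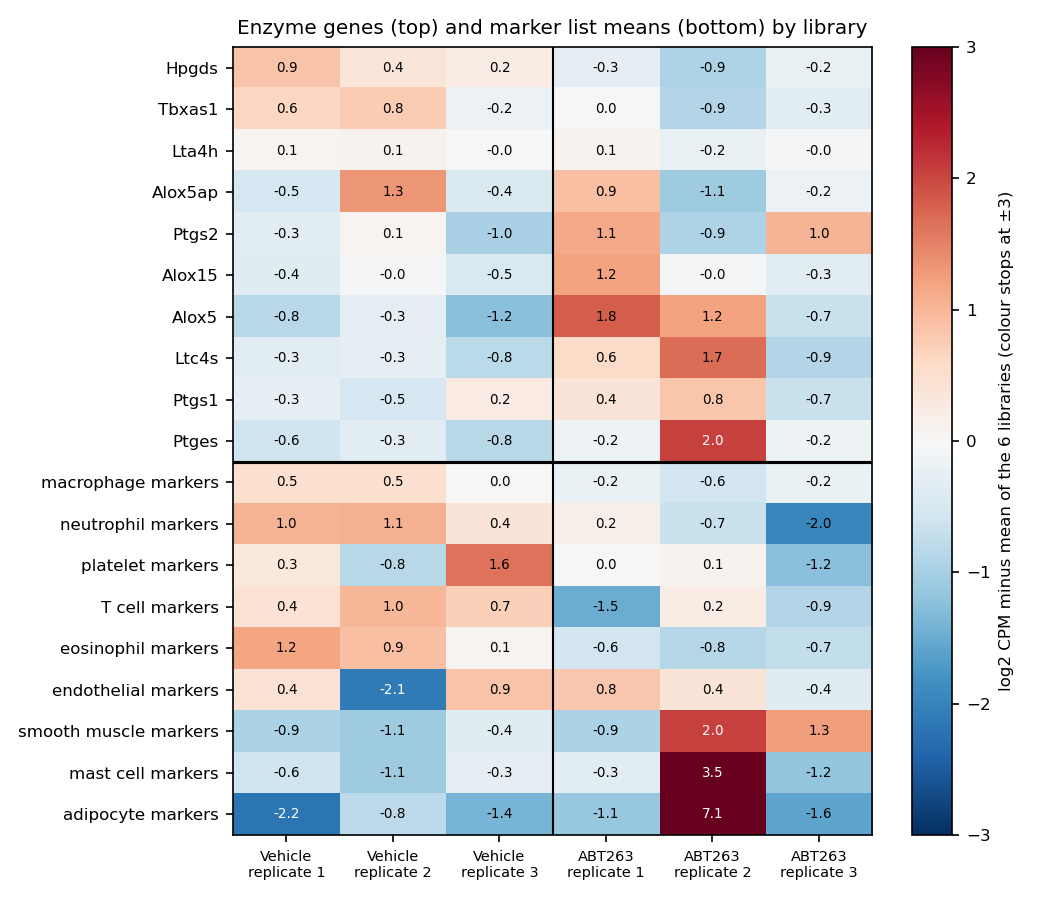
log2 CPM of each enzyme gene (top 10 rows) and mean log2 CPM of each marker list (bottom 9 rows), minus the mean of the 6 libraries, in columns of 3 vehicle and 3 ABT263 libraries. Hpgds and Tbxas1 have their lowest value in ABT263 replicate 2, as do the macrophage markers. Ptges and Ltc4s have their highest value there, as do the mast cell, adipocyte and smooth muscle markers.

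Set against the macrophage markers of the same library, Hpgds and Tbxas1 had overlapping groups. The measure is the log2 CPM of the gene minus the mean log2 CPM of the 15 markers. For Hpgds it was -1.13, -1.60 and -1.27 with vehicle and -1.60, -1.85 and -1.52 with ABT263, a difference of -0.32 (exact permutation p = 0.3, two-sided). For Tbxas1 it was -1.49, -1.33 and -1.79 with vehicle and -1.41, -1.93 and -1.75 with ABT263, a difference of -0.17 (exact permutation p = 0.5). In both genes ABT263 replicate 2 was the lowest library. With 3 against 3 the smallest p is 0.1, and over the 14 tests of this kind the adjusted p was 0.42 for Hpgds and 0.583 for Tbxas1. Without Cd163, a marker at 40.2 CPM in ABT263 replicate 2 and at most 1.25 CPM elsewhere, the differences were -0.14 for Hpgds and 0.012 for Tbxas1.

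Of the other 8 genes, 6 stood higher in every ABT263 library than in every vehicle library on this relative measure (Alox5, Alox15, Lta4h, Ltc4s, Ptgs2 and Ptges). Such separation, in either direction, was also found for 40.1% of all genes, 39.5% on the higher side and 0.585% on the lower. The 6 differences ran from 0.53 for Lta4h to 2.22 for Alox5, each with an exact permutation p of 0.1, the smallest possible, and an adjusted p of 0.233. Alox5ap (0.40) and Ptgs1 (1.002) had groups that overlapped, with exact permutation p = 0.6 and 0.2.

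**Figure D3:**
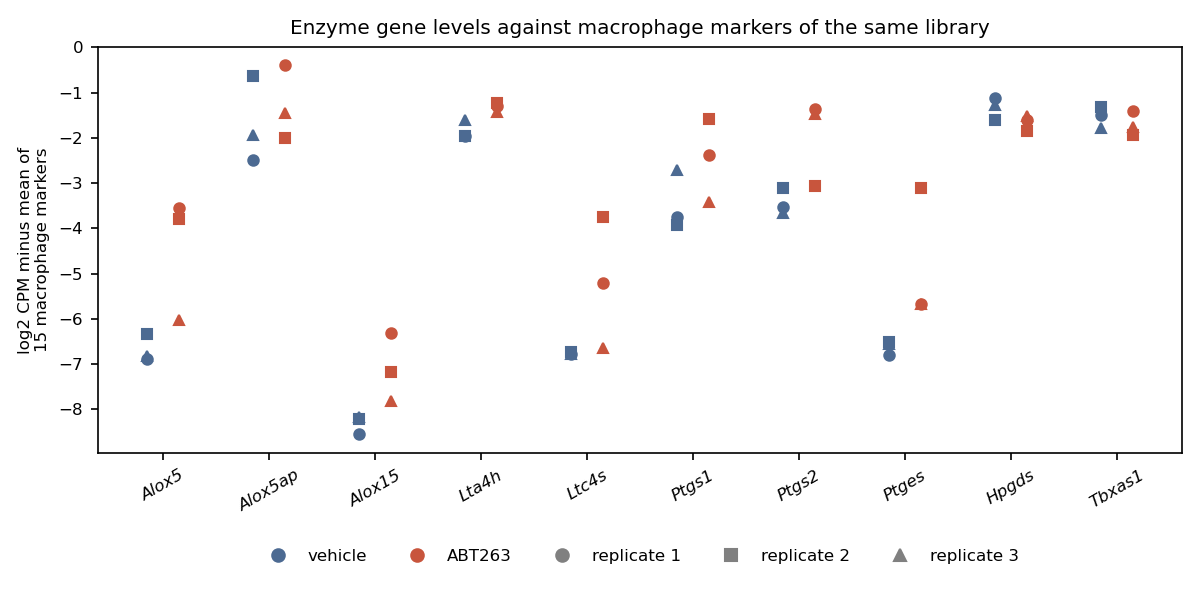
log2 CPM of each enzyme gene minus the mean log2 CPM of 15 macrophage markers in the same library (y axis, log2 units), with 1 point per library (blue vehicle, red ABT263; the shape gives the replicate). The groups overlap for Hpgds, Tbxas1, Alox5ap and Ptgs1 and lie apart for the 6 other genes.

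On the leukotriene branch, Alox5 had the highest log2 fold change of the 10. It encodes 5-lipoxygenase, the enzyme of myeloid cells that starts leukotriene synthesis (chromosome 6, 116410077 to 116461178, minus strand). Its levels were 2.45, 3.60 and 1.84 CPM with vehicle and 15.5, 10.2 and 2.76 CPM with ABT263. ABT263 replicates 1 and 2 were above all vehicle libraries, and replicate 3 lay within the vehicle range. The log2 fold change was 1.85 (SE 0.63, edgeR adjusted p = 0.592; DESeq2 adjusted p = 0.118), from means of 2.63 ± 0.893 and 9.47 ± 6.38 CPM. It ranged from 1.29 without ABT263 replicate 1 to 2.28 without ABT263 replicate 3. Neutrophil markers, from cells that use the enzyme, had values of the opposite sign. All 10 of those that passed the filter had a negative log2 fold change (49.9% of all genes). None passed by edgeR, and 1, Csf3r, passed by DESeq2 (1.01% of all genes). At an unadjusted p under 0.05 edgeR listed 2 of the 10 (3.68% of all genes on the lower side). For 3 of the 10 every ABT263 library was below every vehicle library (6.31% of all genes). The 11 in the table summed to 140 to 293 CPM with vehicle and 62.0 to 144 CPM with ABT263.

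Alox5ap encodes FLAP, the membrane protein that hands arachidonic acid to 5-lipoxygenase. It had 51.5, 186 and 54.7 CPM in the vehicle libraries and 138, 35.1 and 65.6 CPM in those of ABT263. It varied widely within both groups, with vehicle replicate 2 and ABT263 replicate 1 high. This gave a log2 fold change of -0.30 (SE 0.67, edgeR adjusted p = 0.949). Its sign turned to 0.58 without vehicle replicate 2 and to 0.058 without ABT263 replicate 2, and with both left out it was 0.94. The count of Alox5ap is uncertain in part, since 13.3% of its exon bases overlap an antisense gene and the library kit does not mark strand.

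Enzyme and helper did not keep a fixed proportion. There were 21.0, 51.8 and 29.7 reads of Alox5ap for each read of Alox5 with vehicle and 8.89, 3.46 and 23.8 with ABT263. The lowest vehicle ratio lay below that of ABT263 replicate 3, so the groups overlapped (log2 difference -1.82, exact permutation p = 0.2, adjusted p = 0.311). The group means of the log2 ratio were 4.99 and 3.17.

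Lta4h encodes leukotriene A4 hydrolase, which makes leukotriene B4, a chemoattractant of neutrophils, and it was the steadiest of the 10. Its levels were 74.3, 74.3 and 68.5 CPM with vehicle and 74.3, 60.0 and 67.5 CPM with ABT263. Vehicle and ABT263 libraries overlapped, and only ABT263 replicate 2 lay clearly below the rest. Its log2 fold change was -0.11 (SE 0.16, edgeR adjusted p = 0.91) and ran from -0.19 to -0.025 with 1 library left out.

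Ltc4s encodes leukotriene C4 synthase, which starts the cysteinyl leukotrienes and is found in mast cells, eosinophils and macrophages. Its levels were 2.64, 2.72 and 1.89 CPM with vehicle and 4.89, 10.5 and 1.80 CPM with ABT263. ABT263 replicate 2 was the highest of all libraries and ABT263 replicate 3 the lowest, so the treated group spanned the vehicle group. The fitted log2 fold change was 1.25 (SE 0.62, edgeR adjusted p = 0.632), or 0.47 without ABT263 replicate 2. The exons of Ltc4s overlap an antisense gene over 26.4% of their bases, so its count is uncertain in part.

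Most mast cell markers were highest in the same library, the exceptions of the 12 being Kit and Gata2. The 12 mast cell markers in the table summed to 204 CPM in ABT263 replicate 2 and to 23.9 to 86.0 CPM in the other 5 libraries. The mast cell proteases Mcpt4 and Cpa3 stood there at 41.9 and 31.3 CPM, against at most 0.196 and 0.366 CPM elsewhere, and Mrgprb1, a mast cell receptor, had 0 counts in the other 5. Gata2, which other cells also express, had 33.4 CPM there against 61.8 CPM in vehicle replicate 3, and Kit 12.2 against 20.3 CPM. Hpgds, which mast cells also use, was lowest, at 39.1 CPM, in the library where the sum of these markers was highest. The part of these cells in the Ltc4s and Hpgds levels was not tested.

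Alox15 encodes 12/15-lipoxygenase, which oxidises fatty acids and lipoprotein lipids and in the mouse is found in eosinophils and resident peritoneal macrophages. It was the lowest of the 10, with 48 to 222 counts per library. Its levels were 0.768, 0.965 and 0.717 CPM with vehicle and 2.29, 0.963 and 0.799 CPM with ABT263. Only ABT263 replicate 1 lay above the vehicle range, and the other libraries of the group lay within it. The log2 fold change was 0.73 (SE 0.52, edgeR adjusted p = 0.755), or 0.11 without ABT263 replicate 1. The 8 eosinophil markers summed to 8.45 to 18.4 CPM with vehicle and 3.68 to 12.9 CPM with ABT263. Of these, the eosinophil peroxidase gene Epx had 0 counts in 5 libraries. The 5 eosinophil markers that passed the filter all had a negative log2 fold change (49.9% of all genes), and their groups overlapped. All 8 peritoneal macrophage markers had a positive log2 fold change (50.1% of all genes), from 0.12 to 1.88. None passed by edgeR, 0 had an unadjusted p under 0.05, and the groups overlapped for all 8. The highest value, that of Timd4, came with 6.21 CPM in ABT263 replicate 2 and at most 0.878 CPM elsewhere. In ABT263 replicate 1, where Alox15 was highest, Timd4 had 0.227 CPM. The 8 markers summed to 228.7 to 349 CPM with vehicle and 231.5 to 689 CPM with ABT263. Single genes made up much of the higher sums, Prg4 with 501 CPM in ABT263 replicate 3 and Selp, which endothelium and platelets also express, with 313 CPM in ABT263 replicate 1. The part of either cell type in the Alox15 level was not tested.

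On the prostanoid branch, Ptgs1 and Ptgs2 encode the cyclooxygenases, which make prostaglandin H2. COX-1, from Ptgs1, is made steadily by many cells and by platelets, and COX-2, from Ptgs2, is induced by inflammatory and growth signals. Ptgs1 (chromosome 2, 36230426 to 36252272, plus strand) had 21.7, 18.9 and 31.7 CPM in the vehicle libraries and 34.7, 47.1 and 16.8 CPM in those of ABT263. ABT263 replicate 3 was the lowest of all and the other 2 ABT263 libraries the highest. This gave a log2 fold change of 0.45 (SE 0.40, edgeR adjusted p = 0.817), and it was -0.050 with vehicle replicate 2 and ABT263 replicate 2 both left out. Platelet markers, given above, had their lowest sum in ABT263 replicate 3 as well. Their highest sum, 184 CPM, was in vehicle replicate 3, where Ptgs1 was below its levels in ABT263 replicates 1 and 2. The part of platelets in the Ptgs1 level was not tested.

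Ptgs2 (chromosome 1, 150100031 to 150108227, plus strand) had 25.1, 33.7 and 16.4 CPM in the vehicle libraries and 70.3, 16.8 and 65.3 CPM in those of ABT263. ABT263 replicates 1 and 3 were above every vehicle library, and replicate 2 was at the lower end of the vehicle range. The fitted log2 fold change was 1.02 (SE 0.55, edgeR adjusted p = 0.655) and stayed between 0.71 and 1.44 with 1 library left out. The ratio of Ptgs2 to Ptgs1 reads was 1.16, 1.78 and 0.519 with vehicle and 2.03, 0.357 and 3.88 with ABT263. Its range with ABT263 held that with vehicle (log2 difference 0.46, exact permutation p = 0.7, adjusted p = 0.7), since ABT263 replicate 2 was the highest library for Ptgs1 and low for Ptgs2, while replicate 3 was the lowest for Ptgs1 and high for Ptgs2. Both genes were high in replicate 1.

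Ptges encodes microsomal prostaglandin E synthase 1, the inducible enzyme that works with COX-2 to form prostaglandin E2 (chromosome 2, 30889471 to 30929863, minus strand). Its levels were 2.59, 3.16 and 2.22 CPM with vehicle and 3.53, 16.3 and 3.52 CPM with ABT263. All ABT263 libraries were above all vehicle libraries, ABT263 replicates 1 and 3 by little. The log2 fold change was 1.55 (SE 0.66, edgeR adjusted p = 0.596), from means of 2.66 ± 0.474 and 7.78 ± 7.37 CPM, and it was 0.41 without ABT263 replicate 2. That library held the adipocyte and mast cell markers given above. It was also the highest for 10 smooth muscle markers, with a sum of 15916 CPM against at most 9843 CPM elsewhere. The part of any of these cells in the Ptges level was not tested. In ABT263 replicate 2, COX-2 and its partner synthase stood at opposite ends, Ptges at its highest and Ptgs2 next to its lowest.

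**Figure D4:**
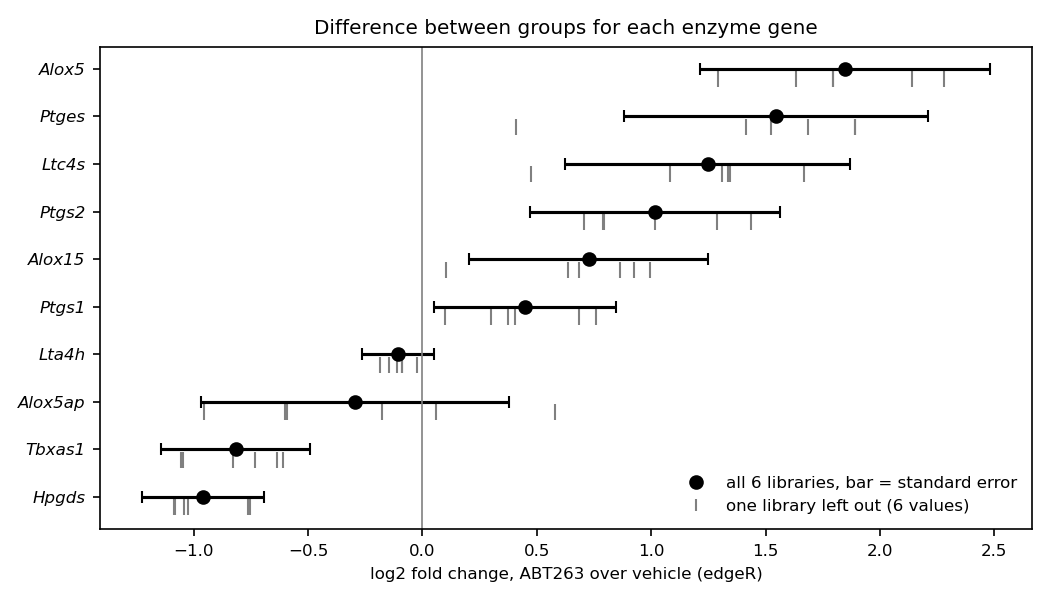
log2 fold change of each gene (x axis, ABT263 over vehicle), with the edgeR estimate from all 6 libraries (black point, bar ± 1 standard error) and the 6 estimates that each leave out 1 library (grey ticks). Ptges, Ltc4s and Alox15 come down to 0.41, 0.47 and 0.11 when 1 ABT263 library is left out, and the ticks of Alox5ap lie on both sides of 0.

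The spread between libraries was wider with ABT263 than with vehicle for 8 of the 10 genes, the exceptions being Alox5ap and Tbxas1. Of all genes, 43.7% had the wider spread with ABT263. The median SD of log2 CPM over the 10 was 0.36 with vehicle and 0.90 with ABT263. The high members were not the same in each ABT263 library. ABT263 replicate 1 was the highest of the 6 libraries for Alox5, Alox15 and Ptgs2, ABT263 replicate 2 was so for Ltc4s, Ptgs1 and Ptges, and ABT263 replicate 3 for none.

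For each member the genes whose log2 CPM followed it most closely over the 6 libraries were ranked by Pearson's r, as a description, among the 12335 other genes whose mean log2 CPM reached 1 (12336 for Alox15, itself below that level). Hpgds was most like Etv3 (r = 0.999), Plekhf2 and Atp13a2, and Tbxas1 most like Rab20, Tmem230 and Plekho2. Alox5 was most like Cep89 (0.987), Spry2 and Vbp1, and Ptges most like Retsat (0.997), Rhbdl1 and Bnip3. For the others the first gene was Tsen54 for Alox5ap, Abcd4 for Alox15, Skap2 for Lta4h, Cox10 for Ltc4s, Gnpda2 for Ptgs1 and Shcbp1 for Ptgs2. These r are the largest of 12335 values over only 6 points, so values this high can come from the picking alone. All points share their libraries, and ABT263 replicate 2 is the highest or lowest point for Alox5ap, Hpgds, Tbxas1, Lta4h, Ltc4s, Ptgs1 and Ptges.

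Divided by exon length, the levels gave a rough order across genes. The length is the union of all annotated exons of a gene, so further transcript forms make it longer. The annotation used for counting is not known, so the order is approximate. In CPM per kilobase of exon with vehicle, Alox5ap was highest at 68.7 ± 54.2 (SD, n = 3), followed by Hpgds at 16.3 ± 3.86, Lta4h at 11.9 ± 0.546 and Tbxas1 at 10.2 ± 3.20. Ptgs1 (6.21 ± 1.72) and Ptgs2 (5.48 ± 1.89) came next, and then Ltc4s (2.38 ± 0.453), Ptges (0.677 ± 0.121), Alox5 (0.641 ± 0.217) and Alox15 (0.333 ± 0.0534). Of neighbours in this order, Lta4h and Tbxas1, Tbxas1 and Ptgs1, Ptgs1 and Ptgs2, and Ptges and Alox5 overlapped between vehicle libraries, and the other neighbours did not. With ABT263, Alox5ap was again highest in every library (55.9 ± 37.0 CPM per kilobase). Ptgs2 was the next highest in ABT263 replicates 1 and 3 and ranked 8 of 10 in ABT263 replicate 2, while Hpgds, next highest in every vehicle library, ranked 4 or 5 with ABT263.

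The starts of 4 genes are shown because these had the lowest or the highest log2 fold changes, Hpgds and Tbxas1 on the one side and Alox5 and Ptges on the other. Each line gives the 250 bases before the gene's start in RefSeq (GRCm38.p6), read 5′ to 3′ on the gene's own strand, Hpgds at chr6:65144731-65144980 (minus), Tbxas1 at chr6:38918736-38918985 (plus), Alox5 at chr6:116461179-116461428 (minus) and Ptges at chr2:30903298-30903547 (minus). Capitals mark GAGGAA, the core bound by ETS factors such as the myeloid regulator PU.1, the TATA box TATAAA and the GC box GGGCGG, each on either strand.
Hpgds: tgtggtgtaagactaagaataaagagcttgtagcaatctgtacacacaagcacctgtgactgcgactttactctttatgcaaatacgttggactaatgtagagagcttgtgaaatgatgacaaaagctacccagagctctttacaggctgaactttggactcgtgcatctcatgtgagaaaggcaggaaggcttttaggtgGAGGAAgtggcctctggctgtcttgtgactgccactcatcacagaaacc
Tbxas1: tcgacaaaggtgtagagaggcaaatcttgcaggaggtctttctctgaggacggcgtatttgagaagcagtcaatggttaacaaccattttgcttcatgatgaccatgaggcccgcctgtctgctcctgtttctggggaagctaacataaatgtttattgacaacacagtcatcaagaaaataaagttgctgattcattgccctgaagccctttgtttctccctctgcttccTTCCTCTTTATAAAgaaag
Alox5: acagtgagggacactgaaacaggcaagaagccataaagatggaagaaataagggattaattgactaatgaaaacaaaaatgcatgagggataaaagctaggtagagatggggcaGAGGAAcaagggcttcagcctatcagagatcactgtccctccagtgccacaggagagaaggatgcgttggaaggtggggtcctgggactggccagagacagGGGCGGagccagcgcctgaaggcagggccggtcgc
Ptges: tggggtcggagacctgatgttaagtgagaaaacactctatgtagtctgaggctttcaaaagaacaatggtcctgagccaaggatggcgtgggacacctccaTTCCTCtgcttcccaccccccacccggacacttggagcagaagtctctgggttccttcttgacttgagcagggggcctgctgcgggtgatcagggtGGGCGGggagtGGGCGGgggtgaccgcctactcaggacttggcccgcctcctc
For Hpgds, Tbxas1 and Ptges these starts lie inside the span that the GENCODE annotation gives the gene, which has transcripts with other starts.

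All 4 windows hold GAGGAA or its reverse complement, 44 to 49 bases before the start in Hpgds and 14 to 19 bases before it in Tbxas1, where it adjoins overlapping TATAAA matches on both strands. Over the 8 members with a RefSeq window (Alox5, Lta4h, Ltc4s, Ptgs1, Ptgs2, Ptges, Hpgds and Tbxas1), 7 held GAGGAA, against 23.3% of 32851 windows of the same length. TATAAA was in 1 of the 8 (12.4% of all windows) and GGGCGG in 3 of the 8 (32.7%). CACGTG, the E-box, and TGACGTCA, the cyclic AMP element, were in none of the 8 (6.02% and 1.55%). The motif was present in genes with positive and with negative log2 fold changes, Alox5 and Hpgds among them. These matches describe letters only, and no binding was measured.

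The rest of the pathway was examined through 66 genes on 4 lists, of which 65 were in the table and 52 passed the filter. None of the 52 passed by edgeR or limma-voom, and 1 passed by DESeq2, which gave no adjusted p for 4 of them. At an unadjusted p under 0.05 edgeR listed 9 of them (8.38% of all genes), 6 lower (3.68%) and 3 higher (4.70%). The log2 fold change was positive for 24 and negative for 28. Akr1b3, Alox12b, Oxgr1 and Pla2g10 were listed at 0 in every library. The annotation and multi-mapping rule of the counts are not known, so a listed 0 need not mean that the transcript was absent.

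Genes that release arachidonic acid were divided, 6 positive and 4 negative of 10 tested, with a median log2 fold change of 0.068. Pla2g4a encodes the cytosolic phospholipase A2 that feeds both branches. It had 36.7, 56.5 and 34.9 CPM in the vehicle libraries and 62.4, 57.2 and 63.2 CPM in those of ABT263, higher in every ABT263 library by a small margin (log2 fold change 0.51, SE 0.22, edgeR adjusted p = 0.596). Pla2g7 encodes the lipoprotein-associated phospholipase of macrophages, which cleaves platelet-activating factor and oxidised phospholipids. It was lower in every ABT263 library, at 170, 94.8 and 205 CPM against 307, 371 and 260 CPM (log2 fold change -0.99, SE 0.33, edgeR adjusted p = 0.592). Pla2g15, the lysosomal phospholipase A2, had a log2 fold change of -0.49.

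Among 17 other synthesis genes tested, 9 were positive and 8 negative, with a median of 0.019. Ptgis, prostacyclin synthase of smooth muscle and endothelium, had 155, 314 and 224 CPM in the vehicle libraries and 279, 463 and 411 CPM in those of ABT263. The groups overlapped through vehicle replicate 2 (log2 fold change 0.73, SE 0.33, edgeR adjusted p = 0.601). The 10 smooth muscle markers summed to 15916 and 9843 CPM in ABT263 replicates 2 and 3, the 2 libraries where Ptgis was highest. Their sum was 2634 to 3636 CPM with vehicle and lowest, at 2424 CPM, in ABT263 replicate 1. In that library Ptgis was above vehicle replicates 1 and 3. The part of smooth muscle in the Ptgis level was not tested. Cotl1, whose product coactosin-like protein binds 5-lipoxygenase, was lower in every ABT263 library (log2 fold change -0.77, SE 0.32), whereas Alox5 itself had the positive value given above. Cyp2j6, an epoxygenase relative, was at 9.74 ± 0.332 CPM with vehicle and 13.7 ± 1.83 CPM with ABT263 (log2 fold change 0.49). Ptgds, the lipocalin-type prostaglandin D synthase, had 3.25 CPM in ABT263 replicate 2 and at most 0.307 CPM elsewhere.

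**Figure D5:**
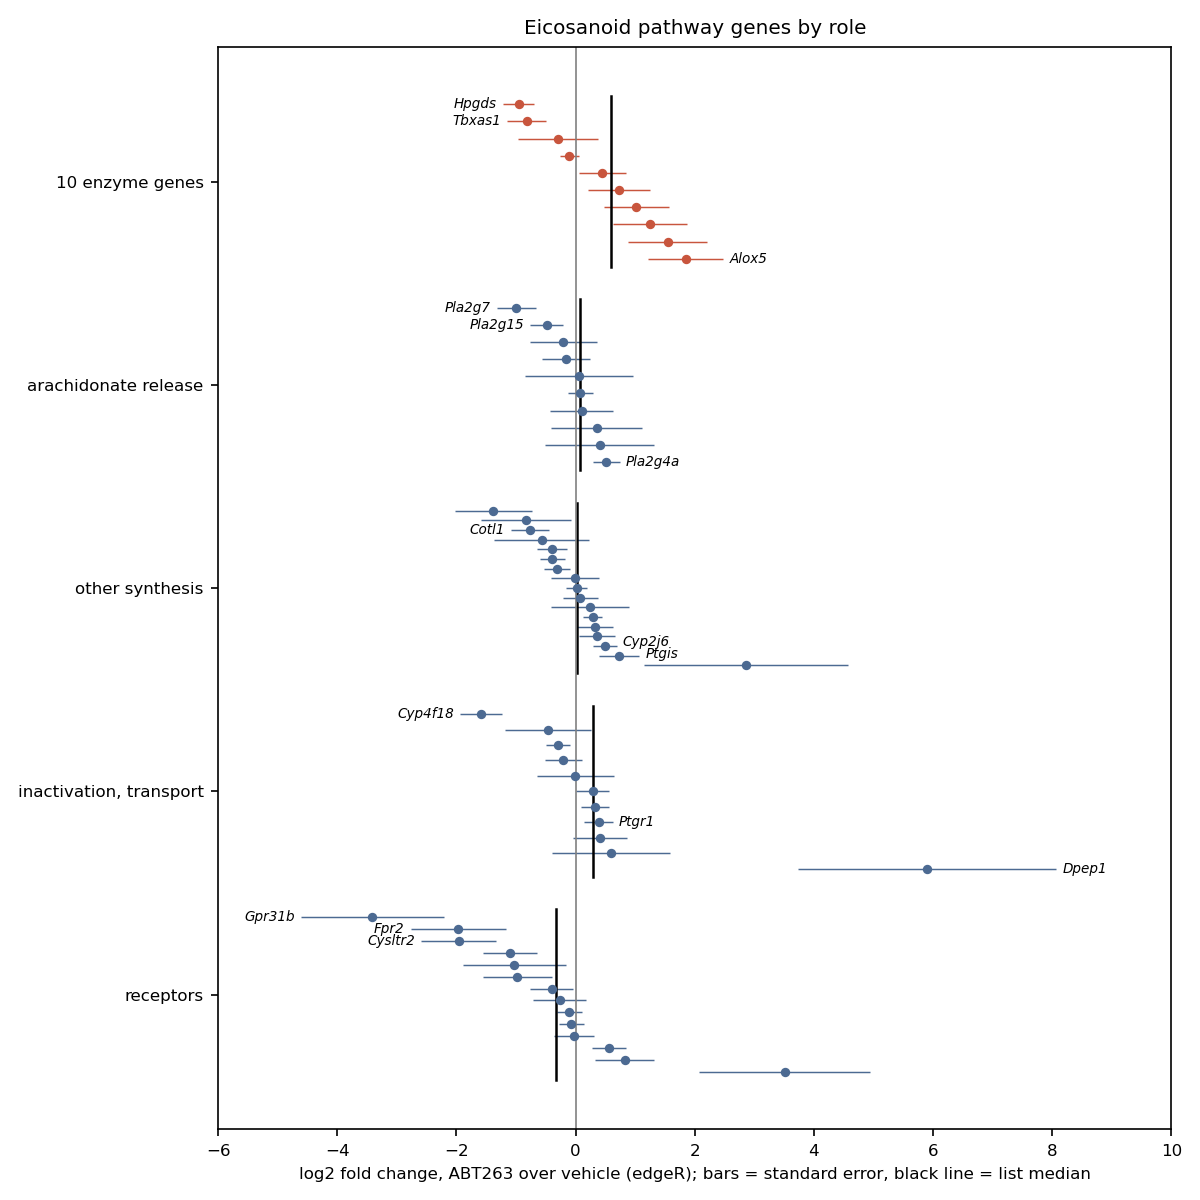
log2 fold change (x axis, ABT263 over vehicle, edgeR) of the 10 enzyme genes (red) and of 52 other pathway genes (blue) by role, with bars of ± 1 standard error. The black line is the median of each list, 0.59 for the 10 genes and -0.34 for the receptors, and the 3 genes of smallest p in each list are named.

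Of 11 genes of inactivation and transport tested, 6 were positive and 5 negative, with a median of 0.28. Cyp4f18 encodes a hydroxylase that inactivates leukotriene B4 in mouse myeloid cells. It had 35.0, 76.4 and 37.0 CPM in the vehicle libraries and 15.7, 13.8 and 19.9 CPM in those of ABT263, so that every ABT263 library was below every vehicle library. It was the 1 pathway gene that DESeq2 called (adjusted p = 0.0144), while by edgeR its adjusted p was 0.592 (log2 fold change -1.58, SE 0.35). Dpep1, a dipeptidase that converts leukotriene D4 to E4, stood at 125 CPM in ABT263 replicate 2 and at most 1.64 CPM elsewhere. Ptgr1, a reductase that inactivates prostaglandins and leukotriene B4, had a log2 fold change of 0.39 (SE 0.24). Hpgd, which oxidises prostaglandins to inactive forms, was highest in the same library at 41.2 CPM (log2 fold change 0.60, SE 0.997).

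Receptors were the list with the most negative values, 11 of 14 tested (49.9% of all genes), with a median of -0.34. Some of the 11 were small, such as Ptger1 at -0.11, Cmklr1 at -0.073 and Pparg at -0.031. Cysltr2, a receptor for cysteinyl leukotrienes, had 0.944, 2.88 and 1.18 CPM in the vehicle libraries and 0.465, 0.593 and 0.224 CPM in those of ABT263 (log2 fold change -1.96, SE 0.63, edgeR adjusted p = 0.592). Fpr2, a receptor of neutrophils and macrophages for formyl peptides and lipoxin A4, had 1.65, 6.52 and 1.55 CPM in the vehicle libraries and 0.94, 1.25 and 0.295 CPM in those of ABT263. Both were lower in every ABT263 library and highest in vehicle replicate 2. Gpr31b, a receptor for 12-hydroxy acid, stood at 26.0 CPM in vehicle replicate 2 and at most 1.62 CPM elsewhere. Ltb4r1, the high-affinity receptor for leukotriene B4, had a log2 fold change of -0.98 (SE 0.58), Cysltr1 one of -0.40, and Ptger4, a receptor for prostaglandin E2, one of -0.27. Tbxa2r, the thromboxane receptor of platelets and smooth muscle, had one of 0.82 (SE 0.49), with 18.6 and 13.1 CPM in ABT263 replicates 2 and 3 against 5.68 to 8.02 CPM with vehicle and 4.64 CPM in ABT263 replicate 1. None of these receptor genes passed by edgeR, and none passed by DESeq2, which gave no adjusted p for Gpr31b.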

How the data were processed

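The authors deposited 1 table of raw counts per gene symbol for 6 RNA-seq libraries (TruSeq RNA Library Prep Kit v2, per the labels' protocols). Per the submitters' processing notes, which give no roles, the tools were featureCounts 1.4.6, Subread, Bowtie2 2.2.6 and TopHat2 2.0.14, with build mm10. The gene annotation, strand setting and multi-mapping rule: not given in the sources used here. Groups came from the sample titles, and replicates were numbered in accession order, which pairs nothing. In R 4.3.3, genes were kept by filterByExpr (minimum count 10, minimum total 15), scaled by TMM and tested with edgeR 4.0.16 (quasi-likelihood, group alone, 4 residual degrees of freedom), with p-values adjusted over all genes. Standard errors were taken as |log2 fold change| / √F. Alternatives were limma-voom with limma 3.58.1 and, with its own size factors, DESeq2 1.42.0. log2 CPM used a prior count of 0.5, or 2 for correlations. The members and lists were chosen with earlier results of these data known, and the motifs after the members' values had been seen. Named pathway genes were the 3 of smallest p per list plus 8 chosen by name. Outside this rule, Ptger1, Cmklr1 and Pparg were named for their small values, and 4 genes for being listed at 0 in every library. Positions, exon lengths and overlaps came from GENCODE M21 (GRCm38) and promoters from RefSeq (GRCm38.p6). The gene knocked out in all mice is not reported here.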

Additional observations from a re-analysis of the deposited data

How the results depend on the processing

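No paired analysis was possible because the labels give the libraries no shared replicate numbers. Across 12 alternatives (RLE size factors, library totals, no filter, DESeq2, limma-voom, each library left out, and both replicates 2 left out) none of the 10 members was called. DESeq2 called 153 of all genes and 1 other pathway gene, against 0 and 0. Under these alternatives 116 member log2 fold changes kept their sign and 4 turned, Alox5ap without vehicle replicate 2 (0.58), without ABT263 replicate 2 (0.058) and without both (0.94), and Ptgs1 without both (-0.050). With 1 library left out Alox5ap ran from -0.95 to 0.58. Members whose groups did not overlap numbered 2 to 5 with 1 library left out, against 2 with all 6 (4 without vehicle replicate 2, 4 without ABT263 replicate 1 and 5 without ABT263 replicate 3). Over all genes the share without overlap was 28.3%, 31.2% and 18.2% in those 3 settings, against 12.0% with all 6, since fewer libraries separate more often. Relative to macrophage markers, Alox5ap ran from -0.043 to 0.93 with 1 library left out (-0.0053 without vehicle replicate 1), and Tbxas1 was 0.055 with both replicates 2 left out and 0.012 without Cd163, an alternative chosen after seeing the data. The Ptgs2 to Ptgs1 log2 difference ran from -0.26 to 1.45 with 1 library left out, -0.025 without vehicle replicate 3. The causes of these changes were not tested. With 3 libraries a group the exact tests could not go below 0.1.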
